A study of Mus musculus with 18 samples.

Results

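This account follows 38 genes that type I interferon is known to induce, as they were read in RNA of mouse regulatory T cells (Treg). Treg are a CD4+ lineage defined by Foxp3 that keeps immune responses in check. The genes were chosen by name from a list of interferon-stimulated genes, with earlier results of these data known. All 38 were found among the 35275 Ensembl identifiers of the table. All 38 were also tested, since each was at 1 FPKM or more in 3 or more libraries, as were 12223 genes in all. Ifi44l met this minimum only through the 3 libraries labelled Mef2c deletion.

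The study compared Treg of 6 groups with 3 libraries each, described as independent biological replicates, from male mice aged 6 to 8 weeks. All mice carried Foxp3-YFP-cre, a cre recombinase and yellow fluorescent protein made from the Foxp3 gene, and the cells were enriched for CD4 on a column and sorted on YFP. The wild-type group carried this allele alone, and the others carried it with floxed Dyrk1, HDAC1, HDAC2, Mef2c or Mef2d. The labels give no strain, litter or sort date, do not say whether Dyrk1 is Dyrk1a or Dyrk1b, and in the growth protocol name Rcor1 as the gene lost.

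Type I interferons bind the receptor chains IFNAR1 and IFNAR2, whose kinases JAK1 and TYK2 phosphorylate STAT proteins. The complex ISGF3, which includes STAT2 and IRF9, binds a DNA element called ISRE (interferon-stimulated response element). The induced genes encode RNA sensors, antiviral enzymes, ubiquitin-like modifiers and the ISGF3 subunits themselves. Many are transcribed at a low level without infection, kept up by small amounts of interferon, and this shared level is called interferon tone.

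Levels are in FPKM, fragments scaled by gene length and library depth, a unit read from the values because no label names it. Depth, recovered from the values, was 15.92 to 24.09 M reads. Hdac1 was at 27.8 to 36.5 FPKM in libraries labelled HDAC1 deletion and at 103.6 to 128 in the other 15. Hdac2 was at 27.1 to 28.9 FPKM with the HDAC2 label and 27.7 to 28.7 in wild type, Mef2d at 52.8 to 53.9 with its own label and 37.5 to 46.6 in wild type, and Mef2c at 0.903 to 1.95 with its own label and 0.302 to 0.571 in wild type. Dyrk1a was at 30.8 to 35.9 FPKM and Dyrk1b at 11.0 to 12.6 with the Dyrk1 label, against 26.0 to 28.6 and 6.73 to 7.54 in wild type. Whole-gene values include exons that are not floxed, so they do not check a deletion, and the groups are named by label throughout. The 8 Treg and T cell markers summed to 1178 to 1448 FPKM, with Foxp3 at 82.5 to 117.7. Dyrk1 replicate 1, Mef2c replicate 1 and Mef2d replicate 1 were rich in B cell markers. In bulk RNA, fewer cells of a type and less RNA per cell cannot be told apart.

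The start regions of 8 members are printed to show what the element of ISGF3 looks like. Of these, 4 hold its core as searched here, and 4 are the genes that departed most by label from the level the list shares. RefSeq held a promoter (250 bases before to 50 after the start, build GRCm38.p6) for 28 of the 38 members. The ISRE core was searched on both strands as GAAA, any 2 bases and GAAA. A shorter form that every ISRE core contains, GAAA, any 2 bases and GAA, was searched too. The ISRE core was found in 12 of 28 members (42.9%) and in 3.99% of 27025 genes with a promoter of the same length. The shorter form was in 15 of 28 (53.6%) and in 9.76% of genes. Each region is printed 5′ to 3′ on the strand of its gene, with matches to the shorter form in capitals (TTC, any 2 bases and TTTC where the match is on the opposite strand). Isg15, Ifit1, Stat2 and Ddx58 hold the ISRE core.
Isg15 (chr4:156200769-156201068, minus strand): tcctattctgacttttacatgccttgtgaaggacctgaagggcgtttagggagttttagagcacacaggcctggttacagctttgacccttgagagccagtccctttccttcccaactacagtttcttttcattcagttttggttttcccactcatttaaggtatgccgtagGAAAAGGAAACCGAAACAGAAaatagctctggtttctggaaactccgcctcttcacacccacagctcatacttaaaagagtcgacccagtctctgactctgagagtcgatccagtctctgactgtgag
Ifit1 (chr19:34640639-34640938, plus strand): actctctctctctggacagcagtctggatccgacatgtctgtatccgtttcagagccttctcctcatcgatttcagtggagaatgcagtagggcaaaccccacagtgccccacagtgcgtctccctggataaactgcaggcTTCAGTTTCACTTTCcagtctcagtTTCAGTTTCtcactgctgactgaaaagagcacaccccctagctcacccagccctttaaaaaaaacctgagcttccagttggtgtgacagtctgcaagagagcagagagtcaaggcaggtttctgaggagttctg
Stat2 (chr10:128270248-128270547, plus strand): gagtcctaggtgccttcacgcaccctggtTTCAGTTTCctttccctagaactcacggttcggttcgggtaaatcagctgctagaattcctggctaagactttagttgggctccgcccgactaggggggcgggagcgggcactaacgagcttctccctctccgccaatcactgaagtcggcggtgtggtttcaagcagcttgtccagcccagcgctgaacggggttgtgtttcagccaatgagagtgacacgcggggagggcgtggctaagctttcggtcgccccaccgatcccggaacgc
Ddx58 (chr4:40239776-40240075, minus strand): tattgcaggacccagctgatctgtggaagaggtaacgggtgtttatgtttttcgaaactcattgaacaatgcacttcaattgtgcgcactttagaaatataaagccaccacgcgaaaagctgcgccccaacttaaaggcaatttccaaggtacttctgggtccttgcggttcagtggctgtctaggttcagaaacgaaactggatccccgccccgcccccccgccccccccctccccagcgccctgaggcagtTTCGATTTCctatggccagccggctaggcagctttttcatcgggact
Of the forms searched, Ifi44 and Ifi44l hold only the shorter, and Xaf1 and Oasl2 hold neither in this window. The lack of both is not particular to them, as Irf7, Irf9, Herc6, Cmpk2, Oasl1 and Samhd1 hold neither as well.
Ifi44 (chr3:151749861-151750160, minus strand): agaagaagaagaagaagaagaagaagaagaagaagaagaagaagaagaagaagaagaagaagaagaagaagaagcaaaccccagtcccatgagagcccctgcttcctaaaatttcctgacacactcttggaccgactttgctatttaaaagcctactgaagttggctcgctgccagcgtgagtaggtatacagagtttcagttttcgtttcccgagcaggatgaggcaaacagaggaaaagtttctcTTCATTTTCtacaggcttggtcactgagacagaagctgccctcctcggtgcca
Ifi44l (chr3:151762842-151763141, minus strand): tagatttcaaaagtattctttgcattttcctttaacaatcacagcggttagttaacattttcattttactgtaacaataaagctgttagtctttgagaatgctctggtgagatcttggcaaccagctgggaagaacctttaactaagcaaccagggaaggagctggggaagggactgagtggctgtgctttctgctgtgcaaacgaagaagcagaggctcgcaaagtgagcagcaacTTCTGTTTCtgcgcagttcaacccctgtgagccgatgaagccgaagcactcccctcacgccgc
Xaf1 (chr11:72301379-72301678, plus strand): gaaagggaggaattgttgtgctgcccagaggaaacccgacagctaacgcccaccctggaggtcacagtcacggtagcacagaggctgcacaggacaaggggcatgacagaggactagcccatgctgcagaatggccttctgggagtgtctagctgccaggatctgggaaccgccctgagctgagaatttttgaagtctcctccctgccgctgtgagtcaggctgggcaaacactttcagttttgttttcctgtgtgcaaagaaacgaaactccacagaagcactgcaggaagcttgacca
Oasl2 (chr5:114896684-114896983, plus strand): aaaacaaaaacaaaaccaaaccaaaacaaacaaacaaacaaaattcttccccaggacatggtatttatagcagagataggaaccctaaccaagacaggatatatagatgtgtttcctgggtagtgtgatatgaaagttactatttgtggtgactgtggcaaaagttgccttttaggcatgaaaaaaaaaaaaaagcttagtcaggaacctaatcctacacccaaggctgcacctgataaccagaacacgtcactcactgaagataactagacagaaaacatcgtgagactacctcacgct
A match is a description of letters, not of a bound site. Nor does the lack of a match show that a gene lacks an ISRE, since looser forms were not searched. The Xaf1 and Ifi44 regions, for example, hold tttcagtttt, which differs from the searched core in its last base. The core of MEF2 sites, searched as CTA, any 4 bases and TAG, was in 2 of 28 members (Isg20 and Ifit2, 7.1%) and 4.23% of genes, and in none of these 8 regions.

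The members differed mainly along 2 lines. Most of them followed a level common to the list, which varied from library to library and was lowest in wild-type replicate 1. By contrast, 4 genes departed from it most by label. Xaf1, Ifi44 and Ifi44l were high in libraries labelled Mef2c deletion, and Oasl2 was low in libraries labelled Mef2c or Mef2d deletion. Smaller departures from the median log2 difference of the other members included Oas2 (-0.75) and Oasl1 (-0.61) with Mef2c. Ifi27l2a with HDAC2 (-0.68) and Ifi204 with Mef2d (0.84) were others. By the F test of limma, 10 of the 38 members differed among the 6 groups (adjusted p under the threshold of 0.05), a share of 26.3% where 38.6% of all tested genes were called. The 10 were Xaf1, Ifi44, Ifi44l, Oasl2, Ifit2, Irf9, Stat2, Ddx58, Parp14 and Sp100.

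**Figure D1:**
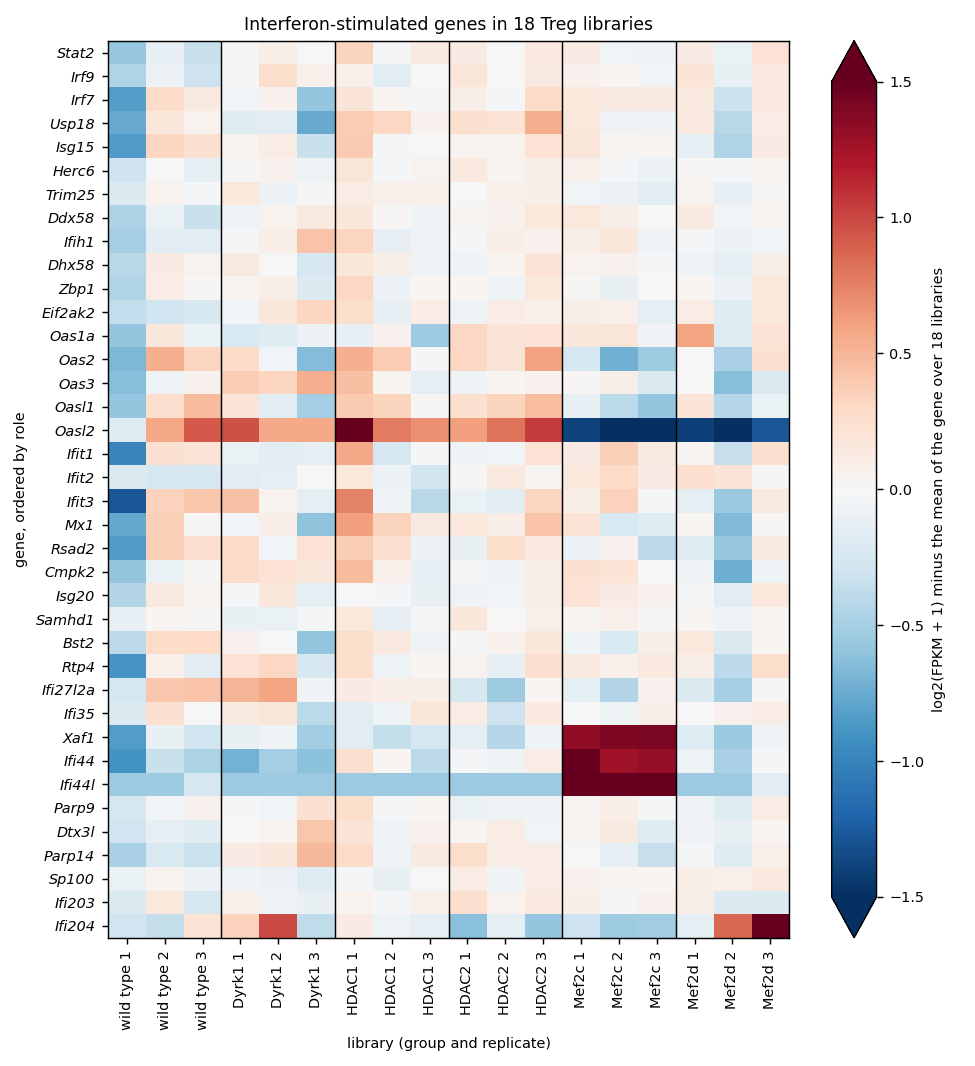
Level of the 38 interferon-stimulated genes (rows) in the 18 libraries (columns), as the difference of log2(FPKM + 1) from the gene's mean over all libraries. Wild-type replicate 1 is low for most rows, and the rows of Xaf1, Ifi44, Ifi44l and Oasl2 change by group.

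The common level was described as the mean log2(FPKM + 1) of the 38 members in each library. In wild type this mean was 3.72, 4.30 and 4.25 (mean 4.09 ± 0.32 SD, n = 3). It was 4.29, 4.30 and 4.12 with the Dyrk1 label, 4.49, 4.25 and 4.20 with HDAC1, and 4.27, 4.25 and 4.39 with HDAC2. It was 4.40, 4.32 and 4.26 with Mef2c and 4.22, 3.95 and 4.31 with Mef2d. The lowest library was wild-type replicate 1 and the next was Mef2d replicate 2, and every deletion group overlapped the other 2 wild-type libraries. Group means exceeded wild type by 0.15 (Dyrk1), 0.23 (HDAC1), 0.22 (HDAC2), 0.24 (Mef2c) and 0.07 (Mef2d), each less than the wild-type SD. Without wild-type replicate 1 the differences were -0.03, 0.04, 0.03, 0.05 and -0.11. Without Xaf1, Ifi44, Ifi44l and Oasl2 the Mef2c difference was 0.13. The mean of the 34 members left was 4.55, 4.49 and 4.42 with Mef2c and 4.54, 4.28 and 4.62 with Mef2d, which overlapped. In wild type it was 3.99, 4.58 and 4.51. The gap between the Mef2c and Mef2d differences given above thus includes these departing genes.

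**Figure D2:**
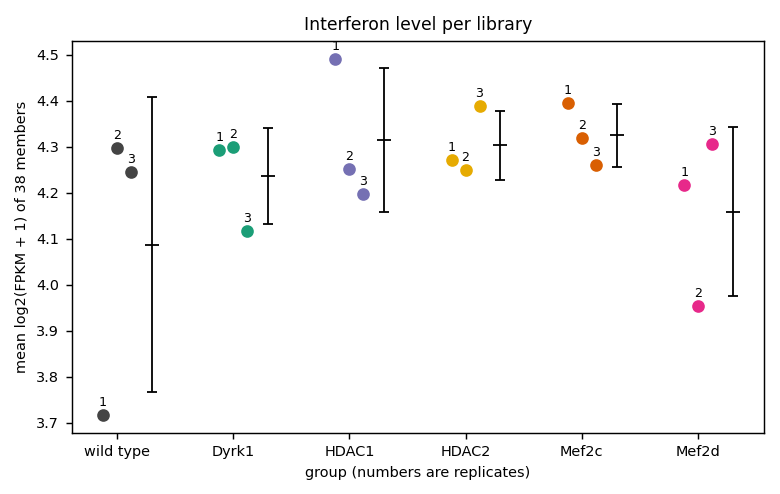
Mean log2(FPKM + 1) of the 38 members per library (points) by group, with the group mean and SD (bars, n = 3). Wild-type replicate 1, at 3.72, lies below all other libraries, and the rest lie between 3.95 and 4.49.

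Isg15, a ubiquitin-like protein joined to other proteins after interferon, followed the common level most closely, with a Pearson r of 0.94 with the mean of the other 37 members over the 18 libraries. It was read at 18.5, 43.2 and 40.2 FPKM in wild type and at 24.8 to 45.5 in the 15 deletion libraries. Rtp4 (r 0.91), the RNA sensor regulator Dhx58 (0.89), Ifit3 (0.89) and Ifit1 (0.87), which bind viral RNA, and Irf7 (0.87), a transcription factor that amplifies interferon production, came next. In all, 10 members had an r over 0.8, 15 lay from 0.5 to 0.8 and 13 at or under 0.5. The lowest were Ifi204 (-0.12), Oasl2 (0.06), Ifi44l (0.07) and Ifit2 (0.22). These correlations share the libraries and their depth and are given as a description.

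Wild-type replicate 1 carried much of this range. Ifit3 was at 6.84 FPKM there and at 23.2 and 24.4 in the other wild-type libraries, with 11.9 to 30.8 in the deletion libraries. Irf7 was at 18.7 FPKM there, against 41.4 and 37.3. Usp18, the protease that removes Isg15 and damps the receptor, was at 13.3 FPKM there, against 26.2 and 24.0. Once each library was set against its own group mean, 20 members had an r over 0.8 with the others, and 10 did so among the 15 deletion libraries alone. Isg15 then stood at 0.98 and 0.96. The common level thus varied between libraries of the same label, and was not carried by wild type alone.

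Markers of monocytes and macrophages also differed between libraries, and their part in the common level was not tested. Their 9 genes summed to 16.9 FPKM in wild-type replicate 1, against 108 and 203 in the other 2, and to 15.7 in Mef2d replicate 2, against 323 and 165. The next lowest sums were those of HDAC2 replicate 1 (24.8 FPKM), Dyrk1 replicate 3 (30.4) and Dyrk1 replicate 2 (34.2), whose common levels were 4.27, 4.12 and 4.30. Over the groups the sums were 16.9 to 203 in wild type, 30.4 to 503 (Dyrk1), 111 to 336 (HDAC1), 24.8 to 164 (HDAC2), 68.5 to 243 (Mef2c) and 15.7 to 323 (Mef2d). None of the 9 was at 0 in all libraries. The 6 plasmacytoid dendritic cell markers summed to 32.0 to 46.0 FPKM over the 18 libraries, most of it Pacsin1 (23.7 to 36.2), while Siglech was at 0.300 to 2.30 and Cox6a2 at 0.140 to 2.00. With the Mef2c label 2 of these 6, Ccr9 (log2 0.63) and Cox6a2 (0.85), rose against wild type, where 19.0% of all genes were called. Cox6a2 averaged 0.289 FPKM in wild type and 1.32 with both the Mef2c and the HDAC1 label, and did not pass with HDAC1.

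Against wild type, the members that passed were mostly higher. In the Dyrk1-labelled libraries 8 of 38 rose and 0 fell by limma, 21.1% where 17.3% of all genes were called (11.1% higher and 6.19% lower). With the HDAC1 label 4 rose and 0 fell (10.5%), where 12.5% of all genes were called (10.2% higher and 2.32% lower). With the HDAC2 label 8 rose and 0 fell (21.1%), where 25.6% were called (16.1% higher and 9.41% lower). Markers of other cells moved with this label, and their part in the count was not tested. All 6 plasma cell markers rose (summed level 668 to 2109 FPKM, wild type 193 to 497), as did 3 of 9 CD8 T and NK cell markers (94.7 to 144 FPKM, wild type 68.1 to 103). The CD8 genes were not among those that rose. Cd8a averaged 0.422 FPKM (wild type 1.88) and Cd8b1 8.30 (wild type 11.2). Eomes was also lower, at 4.94 (wild type 5.37), and none was called. The means of Ncr1, Klrb1c, Klrd1, Nkg7, Gzma and Prf1 were higher than in wild type. Other labels had fewer such calls, and these counts are no result about cell types. Plasma cell markers summed to 523 to 1397 FPKM with HDAC1, with 1 of 6 called higher (12.5% of all genes called). With Mef2c and with Mef2d 1 of 9 CD8 T and NK cell markers fell (19.0% and 21.9% of all genes called). With Dyrk1 (17.3% of all genes called), Mef2c and Mef2d 1 of 5 tested erythroid markers fell. With the same 3 labels 1 of 3 tested conventional dendritic cell markers rose. With Dyrk1 1 of 6 plasmacytoid dendritic cell markers fell. With the Mef2c label 6 of the 38 members rose and 1 fell (18.4%), Ifi44l included, where 19.0% of all genes were called (12.9% higher and 6.06% lower). With the Mef2d label 4 rose and 1 fell (13.2%), where 21.9% were called (13.9% higher and 7.95% lower). At an unadjusted p under 0.05 the members higher were 9, 10, 12, 9 and 8, and those lower 0, 0, 0, 1 and 1. Each share was near or under that of all genes, so the counts are no result about the list. The median log2 difference of the 38 members was 0.11, 0.22, 0.23, 0.19 and 0.10 in that order, beside 0.02, 0.05, 0.05, 0.04 and 0.04 over all tested genes. Without wild-type replicate 1 the Dyrk1 count was 1 and none of the HDAC1 calls was kept. The HDAC2 count was then 2 up and 1 down, the Mef2c count 5 up and 3 down, and the Mef2d count 1 up and 2 down. Those down were Ifi27l2a with HDAC2, Oasl2, Oas2 and Oasl1 with Mef2c, and Oasl2 and Ifi27l2a with Mef2d. Other single libraries moved the counts too. The Dyrk1 count was 4 without wild-type replicate 3, 5 without Dyrk1 replicate 2 and 2 without Dyrk1 replicate 3. No HDAC1 call was kept without wild-type replicate 3 or HDAC1 replicate 1. For HDAC2, leaving out its replicate 1 or wild-type replicate 3 gave 3, and leaving out its replicate 2 or 3 gave 4. The Mef2d count was 2 without wild-type replicate 3 or Mef2d replicate 1 and 3 without Mef2d replicate 3. The F test called 6 members without wild-type replicate 3. All 5 comparisons share the wild-type libraries. Members whose 3 libraries did not overlap wild type numbered 10 (26.3%), 7 (18.4%), 12 (31.6%), 10 (26.3%) and 9 (23.7%), beside 29.8%, 35.7%, 46.6%, 36.3% and 42.3% of all tested genes.

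Stat2, a subunit of ISGF3, was called higher in all 5 comparisons. It was read at 16.1, 22.1 and 19.1 FPKM in wild type (mean 19.1 ± 3.03, n = 3). Its values were 23.8, 25.9 and 24.1 with the Dyrk1 label, 30.8, 23.7 and 26.7 with HDAC1, 26.6, 24.4 and 27.0 with HDAC2, 26.5, 23.6 and 23.3 with Mef2c, and 26.6, 22.5 and 28.5 with Mef2d. All 15 deletion libraries lay above all 3 wild-type libraries. The log2 differences were 0.36, 0.48, 0.43, 0.35 and 0.42 (SE 0.11; adjusted p 0.0431, 0.0154, 0.0136, 0.0441 and 0.018 by limma). With wild-type replicate 1 left out they were 0.24 to 0.37 and none passed (adjusted p 0.0588 to 0.178). With the 3 B cell marker-rich libraries left out, the Dyrk1 (0.38), Mef2c (0.29) and Mef2d (0.40) calls were also lost (adjusted p 0.0688, 0.195 and 0.0748 by limma).

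Irf9, the DNA-binding subunit of ISGF3, rose with the Dyrk1, HDAC2 and Mef2d labels. Wild type was at 29.8, 38.7 and 32.9 FPKM, and the 3 groups at 40.6, 49.5 and 43.3, at 46.8, 41.3 and 45.4, and at 47.0, 38.1 and 45.6. Mef2d replicate 2 overlapped wild type. The log2 differences were 0.39, 0.39 and 0.36 (SE 0.10; adjusted p 0.0203, 0.0145 and 0.0245 by limma). The HDAC1 values of 43.5, 36.8 and 40.9 FPKM and the Mef2c values of 43.1, 42.1 and 39.8 did not pass. The differences fell short of the threshold once wild-type replicate 1 was left out, at 0.30, 0.31 and 0.27. The Mef2d call was also lost with the B cell marker-rich libraries left out (0.30, adjusted p 0.109 by limma).

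**Figure D3:**
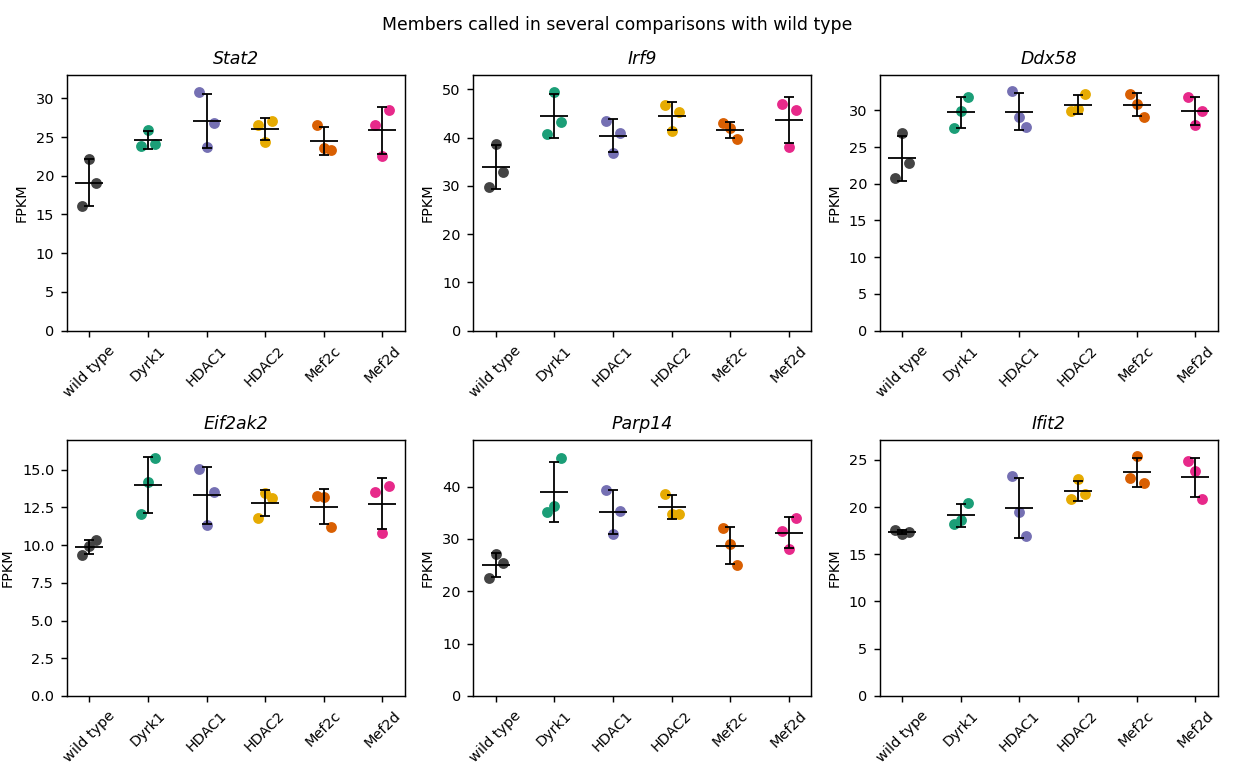
FPKM of Stat2, Irf9, Ddx58, Eif2ak2, Parp14 and Ifit2 in each library (points) with the group mean and SD (bars, n = 3). For Stat2, Ddx58 and Eif2ak2 every deletion library lies above every wild-type library, while for Irf9 Mef2d replicate 2 and HDAC1 replicate 2 lie at the height of wild type.

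Of the genes that sense viral RNA or act on it, several had small rises with some labels. Others, such as Dhx58, Oas2 and Zbp1, passed in no comparison with wild type in the main fit. Ddx58, which encodes the RNA sensor RIG-I, was at 20.7, 26.8 and 22.8 FPKM in wild type and at 27.6 to 32.6 in the 15 deletion libraries, with no overlap. It was called in all 5 comparisons, at log2 differences of 0.33 to 0.38 (SE 0.09; adjusted p 0.0194, 0.0237, 0.00731, 0.00826 and 0.0146 by limma). Without wild-type replicate 1 the HDAC2 and Mef2c calls were kept (adjusted p 0.0339 and 0.0404) and the others were lost (0.0643 to 0.0935). The Mef2d call was also lost with the B cell marker-rich libraries left out (0.30, adjusted p 0.0689 by limma).

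Ifih1, which encodes the related sensor MDA5, rose with the Dyrk1 label alone among those that passed. Its values were 6.11, 7.98 and 8.03 FPKM in wild type and 9.04, 9.82 and 12.7 with that label (log2 0.46, SE 0.13, adjusted p 0.0276 by limma), and 8.31 to 11.7 in the other 12 libraries. Eif2ak2, the kinase PKR that stops translation on double-stranded RNA, was at 9.36, 9.94 and 10.3 FPKM in wild type and at 10.8 to 15.8 in the deletion libraries, with no overlap. It rose with the Dyrk1 (log2 0.46), HDAC1 (0.39) and HDAC2 (0.34) labels (SE 0.12; adjusted p 0.0164, 0.0418 and 0.0424 by limma). Once wild-type replicate 1 was left out Ifih1 was at 0.34 and Eif2ak2 at 0.42, 0.35 and 0.31, and neither kept a call. Deviations from group means in same-numbered libraries correlated weakly between HDAC2 and wild type (r 0.33, 0.24 and 0.16). For HDAC1 and wild type r was 0.30, 0.46 and 0.07. With a replicate block the HDAC2 call on Eif2ak2 was lost (adjusted p 0.0556 by limma), as was the HDAC1 call.

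Oas3, a synthetase of the 2-5A signal that activates RNase L, was highest with the Dyrk1 label, at 13.2, 12.7 and 15.0 FPKM. Wild type was at 6.06, 9.48 and 10.5 (log2 0.62, SE 0.19, adjusted p 0.0352 by limma), and the other 12 libraries at 6.06 to 13.9. Against the other 4 deletion groups, a comparison that does not use wild type, Oas3 rose by 0.46 with the Dyrk1 label, a call lost in 10 of 22 alternatives (0.40 to 0.52). The difference from wild type was 0.41 and did not pass with wild-type replicate 1 left out, and the call was also lost without the 3 libraries high in B cell markers. Ifit2, an RNA-binding antiviral protein, was almost constant in wild type, at 17.6, 17.2 and 17.3 FPKM. It rose to 20.9, 22.9 and 21.4 with HDAC2 (log2 0.31), to 23.1, 25.4 and 22.5 with Mef2c (0.42) and to 24.8, 23.8 and 20.9 with Mef2d (0.39; adjusted p 0.0278, 0.00659 and 0.0101 by limma). Its values with Dyrk1 (18.2, 18.7 and 20.5) and HDAC1 (23.3, 19.4 and 16.9) did not pass. The HDAC2 call was lost without any 1 of its 3 libraries or of the 3 wild-type libraries (0.25 to 0.33 over all alternatives), and the Mef2d call without Mef2d replicate 1 or without all 3 libraries with high B cell markers (adjusted p up to 0.0634 by limma). In wild-type replicate 1, where most members were lowest, Ifit2 was the highest of the group.

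The poly-ADP-ribosyl transferase gene Parp14 was at 22.6, 27.2 and 25.4 FPKM in wild type and rose with 3 labels. It stood at 35.1, 36.3 and 45.5 with Dyrk1 (log2 0.61, SE 0.12, adjusted p 0.00447 by limma), at 39.4, 30.9 and 35.3 with HDAC1 (0.47, adjusted p 0.0198) and at 38.7, 34.8 and 34.7 with HDAC2 (0.51, adjusted p 0.00747). The Mef2c values of 32.1, 29.0 and 25.1 FPKM overlapped wild type, and the Mef2d values of 31.6, 28.1 and 33.9 did not pass. Without wild-type replicate 1 the Dyrk1 and HDAC2 calls held and the HDAC1 call was lost (adjusted p 0.0728). Parp14 was the single member still called with the Dyrk1 label then. In a fit of the 6 Dyrk1 and wild-type libraries alone its adjusted p was 0.0874 by limma.

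Dtx3l, a ubiquitin ligase that works with Parp9, rose with the Dyrk1 label to 34.0, 35.1 and 45.8 FPKM from 27.9, 30.8 and 29.8 (log2 0.35, SE 0.11, adjusted p 0.0371 by limma). Dtx3l and Parp9 overlap on opposite strands, and the strand setting of the counting is not given in the sources used here. Herc6, the mouse ligase that attaches Isg15, rose with the HDAC2 label to 11.3, 10.4 and 10.9 FPKM from 7.98, 10.2 and 9.12 (log2 0.24, SE 0.08, adjusted p 0.0376 by limma). Both calls were lost without wild-type replicate 1 or 3 (Dtx3l also without 2), and over all alternatives Dtx3l lay at 0.22 to 0.43 and Herc6 at 0.12 to 0.32. The Herc6 call was lost too with a replicate block (adjusted p 0.0551 by limma) and with the B cell marker-rich libraries left out (0.0554). Sp100, a nuclear body protein, differed among the 6 groups (F test adjusted p 0.0455 by limma) but in no comparison with wild type. It ranged from 116 to 127 FPKM with Dyrk1, from 124 to 138 in wild type and from 140.2 to 148 with Mef2d.

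The other 23 members were called in no comparison with wild type in the main fit. Ifi27l2a was the member with the highest level, at 357 to 779 FPKM over the 18 libraries (median 524). Samhd1, a dNTP hydrolase, was at 242 to 295 (median 265), Ifi203 at 85.0 to 119.7 (105) and Bst2, the virus-retaining protein tetherin, at 63.2 to 118 (98.9). Those in the middle were Zbp1 (29.4 to 50.4), a sensor of Z-form nucleic acid, Isg20 (25.5 to 40.5), a 3′ exonuclease, Ifi35 (18.8 to 29.9), Parp9 (22.5 to 32.5), Trim25 (20.3 to 26.7), a ligase for RIG-I, and Rtp4 (10.8 to 25.9). Low levels were read for the antiviral genes Oas1a (7.51 to 18.2), Oas2 (1.88 to 6.22), Oasl1 (1.68 to 4.58), Mx1 (2.55 to 8.25), Cmpk2 (3.20 to 8.74) and Rsad2 (0.834 to 3.27), and for Dhx58 (8.67 to 13.9) and Ifit1 (7.23 to 23.2). Ifi204, a DNA-binding protein of the same family as Ifi203, was at 0.827, 2.68 and 5.09 FPKM with the Mef2d label and reached 3.00 in Dyrk1 replicate 2, with 0.308 as the lowest of the 18. With the 3 B cell marker-rich libraries left out it was called higher with the Mef2d label. Ifit3, Oas1a, Ifi203, Ifi204 and Ifi27l2a have near-identical relatives, and how the counting split such reads is not known.

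Of the 38 members, 3 rose far more than the others in the libraries labelled Mef2c deletion. Xaf1, a pro-apoptotic partner of the inhibitor XIAP, was read at 49.1, 51.6 and 52.1 FPKM there (mean 50.9 ± 1.57, n = 3). Its values were 10.1, 17.4 and 15.1 in wild type, 17.4, 18.1 and 12.9 with Dyrk1, 16.8, 14.6 and 15.6 with HDAC1, 17.1, 13.8 and 18.1 with HDAC2, and 16.3, 12.5 and 18.1 with Mef2d. The 3 Mef2c-labelled libraries lay far above the other 15, which overlapped one another. Against wild type the log2 difference was 1.80 (SE 0.17, adjusted p 6.69e-06 by limma), and against the other 4 deletion groups it was 1.63 (SE 0.14, adjusted p 1.23e-06 by limma).

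Ifi44, an interferon-induced protein, was at 6.12, 4.50 and 4.67 FPKM in the Mef2c-labelled libraries. Wild type was at 0.227, 0.804 and 0.637, Dyrk1 at 0.392, 0.599 and 0.495, HDAC1 at 1.70, 1.33 and 0.743, HDAC2 at 1.26, 1.17 and 1.47, and Mef2d at 1.17, 0.634 and 1.23. No library of another label reached the Mef2c range. The log2 difference was 1.98 against wild type (SE 0.18, adjusted p 3.04e-06 by limma) and 1.62 against the other 4 deletion groups (SE 0.14, adjusted p 1.57e-06 by limma). With the HDAC2 label Ifi44 also rose, by 0.58 (adjusted p 0.0284 by limma). That difference was 0.42 and did not pass without wild-type replicate 1, nor did it without wild-type replicate 3 or any 1 HDAC2 library. With the Dyrk1 label Ifi44 fell by 0.91 against the other 4 deletions, a mean that holds the high Mef2c libraries. Against wild type the Dyrk1 difference was -0.04 (adjusted p 0.9 by limma).

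Ifi44l, the neighbouring paralog of Ifi44, was at 8.18, 7.10 and 6.72 FPKM in the Mef2c-labelled libraries and listed at 0 in 13 of the other 15. The 2 exceptions were wild-type replicate 3, at 0.222 FPKM, and Mef2d replicate 3, at 0.307. A level of 0 in the deposited values can hide a few reads, so no fold is given. On the log2(FPKM + 1) scale the difference was 2.96 from wild type and 3.02 from the other 4 deletions. These are a description, since the gene met the minimum level through the libraries where it was high, and it is in the counts of called members only on that footing.

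Oasl2, an OAS-like protein with ubiquitin-like domains, moved the other way and with 2 labels. It was at 0.481, 0.263 and 0.338 FPKM with the Mef2c label and at 0.469, 0.262 and 0.605 with the Mef2d label. Wild type was at 2.39, 4.81 and 6.34, Dyrk1 at 6.55, 4.78 and 4.75, HDAC1 at 10.2, 5.69 and 5.27, and HDAC2 at 4.95, 5.85 and 7.07. All 6 libraries of the 2 Mef2 labels lay below all 12 others. The log2 difference from wild type was -1.95 with Mef2c (SE 0.25, adjusted p 0.000115 by limma) and -1.87 with Mef2d (SE 0.25, adjusted p 0.000264 by limma). Against the other 4 deletion groups, each of which then includes the other Mef2 label, it was -1.79 and -1.69 (SE 0.20; adjusted p 2.4e-05 and 6.85e-05 by limma).

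**Figure D4:**
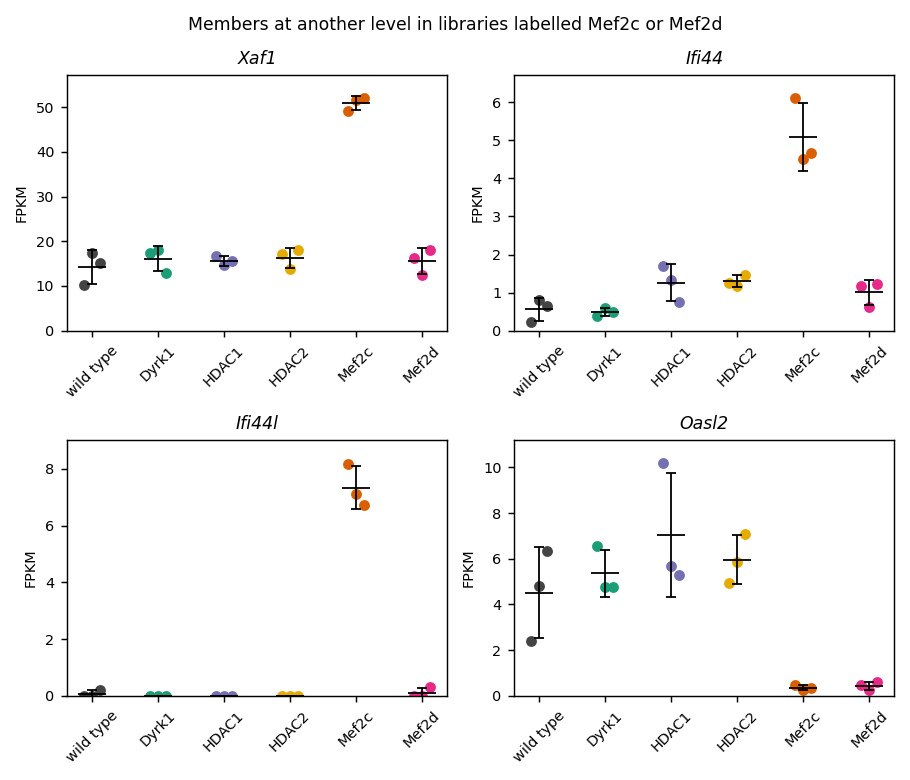
FPKM of Xaf1, Ifi44, Ifi44l and Oasl2 in each library (points) with the group mean and SD (bars, n = 3). Xaf1, Ifi44 and Ifi44l are high with the Mef2c label alone, and Oasl2 is low with the Mef2c and Mef2d labels.

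In the comparisons that leave wild type out, the calls on members were few and mostly on these genes. With the Mef2c label 3 members rose (Xaf1, Ifi44 and Ifi44l) and 1 fell (Oasl2), 10.5% where 9.0% of all genes were called (4.71% higher and 4.29% lower). With the Mef2d label Oasl2 fell, and Ifi44l was called lower, where 5.69% of all genes were called (2.79% higher and 2.90% lower). With HDAC1 Oasl2 rose and Ifi44l was called lower, where 5.51% were called (3.69% higher and 1.82% lower). With HDAC2 Oasl2 rose and Ifi44l was called lower, where 6.13% were called (2.81% higher and 3.31% lower). With Dyrk1 Oas3, Oasl2 and Ifi27l2a rose, Ifi44 and Sp100 fell and Ifi44l was called lower, where 21.9% were called (9.55% higher and 12.4% lower). The Ifi44l calls with Dyrk1, HDAC1, HDAC2 and Mef2d come from the Mef2c libraries in the mean of the other 4 groups, and Ifi44l was no lower with Mef2d (mean 0.102 FPKM) than with the other 3 labels (0). Likewise the mean against which Ifi44 fell with Dyrk1 holds the Mef2c libraries. The mean against which Oasl2 rose holds the Mef2c and Mef2d libraries. The Ifi27l2a call (log2 0.49, adjusted p 0.0493 by limma) was lost in 16 of 22 alternatives (0.36 to 0.69). The Dyrk1 count was 2 in place of 6 once the 3 libraries with high B cell markers were left out.

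Inside a label, Xaf1, Oasl2 and Ifi44 still varied with the common level, and Ifi44l did so less. Set against group means over 18 libraries, r with the other 37 members was 0.87 for Xaf1, 0.85 for Oasl2, 0.83 for Ifi44 and 0.44 for Ifi44l. Over the 15 deletion libraries alone it was 0.77, 0.78, 0.79 and 0.50. Without the Mef2c libraries Xaf1 correlated with the list at 0.87 over 15 libraries, against 0.39 over all 18. In wild-type replicate 1, the library with the lowest common level, Xaf1, Ifi44 and Oasl2 were also the lowest of their group. Ifit2 (0.03) and Dtx3l (0.19) were the members that followed the others least within labels.

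Positions are from the GENCODE M21 annotation of mm10. Xaf1 (ENSMUSG00000040483) lies on chromosome 11 (72301629 to 72313733), and of its nearest tested neighbours Txndc17, a thioredoxin-like protein gene, fell with both Mef2 labels (log2 -0.36 in each; adjusted p 0.0204 and 0.0202 by limma). Both Txndc17 calls were lost without wild-type replicate 3, and over all alternatives the differences lay between -0.42 and -0.29. Mybbp1a, also near Xaf1, fell with Mef2d alone (log2 -0.31, adjusted p 0.0133 by limma), a call lost in 3 of 14 alternatives. Med31 and Ube2g1 did not pass. Within 5 Mb of Xaf1, 22.0% of 141 tested genes were called with the Mef2c label and 19.9% with Mef2d, near the 19.0% and 21.9% of all genes. Singled out after its values were seen, Tlcd2, 3.16 Mb away, averaged 2.01 FPKM in wild type and 9.48 with the Mef2c label (log2 1.81, SE 0.14, adjusted p 4.2e-07 by limma), and 2.12 with Mef2d, which did not pass. Ifi44 (ENSMUSG00000028037; 151730922 to 151749960) and Ifi44l (ENSMUSG00000039146; 151758737 to 151762892) are neighbours on chromosome 3. Beside them Dnajb4, a chaperone gene, fell with the Mef2c label (log2 -0.50, adjusted p 0.0122 by limma), while Rpsa-ps10 and Fubp1 did not pass. Within 5 Mb of Ifi44, 5 of 16 tested genes were called with the Mef2c label (31.2%, all genes 19.0%) and 1 with Mef2d (6.2%, all genes 21.9%). Ifi44l is among the 16 and among the 5 called with Mef2c, so that share is in part built in.

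Oasl2 (ENSMUSG00000029561) lies on chromosome 5 (114896936 to 114912234), and its neighbours were examined after its values had been seen. Its paralog Oasl1 did not pass with either Mef2 label (log2 -0.42 and -0.16), but was called lower with Mef2c once wild-type replicate 1 was left out. Next to them 1500011B03Rik rose with both (log2 0.81 and 0.80; adjusted p 0.00141 and 0.00194 by limma). Within 1 Mb, 15 of 41 tested genes (36.6%) were called with the Mef2c label and 15 of 41 with Mef2d, against 19.0% and 21.9% of all genes. Within 5 Mb the shares of 97 genes were 24.7% and 35.1%. Among them Msi1, an RNA-binding protein gene, rose (log2 1.29 and 1.12) and the ribosomal protein gene Rplp0 was at 1343 and 1363 FPKM in the 2 groups and 2732 in wild type. The largest difference there, also chosen after its values were seen, was that of the predicted gene Gm13841, at 27.0 and 29.4 FPKM with the 2 labels and 2.56 in wild type (log2 2.96 and 2.95; adjusted p 2.5e-05 and 3.96e-05 by limma). Rplp0 has processed pseudogenes, so its split of reads is uncertain.

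**Figure D5:**
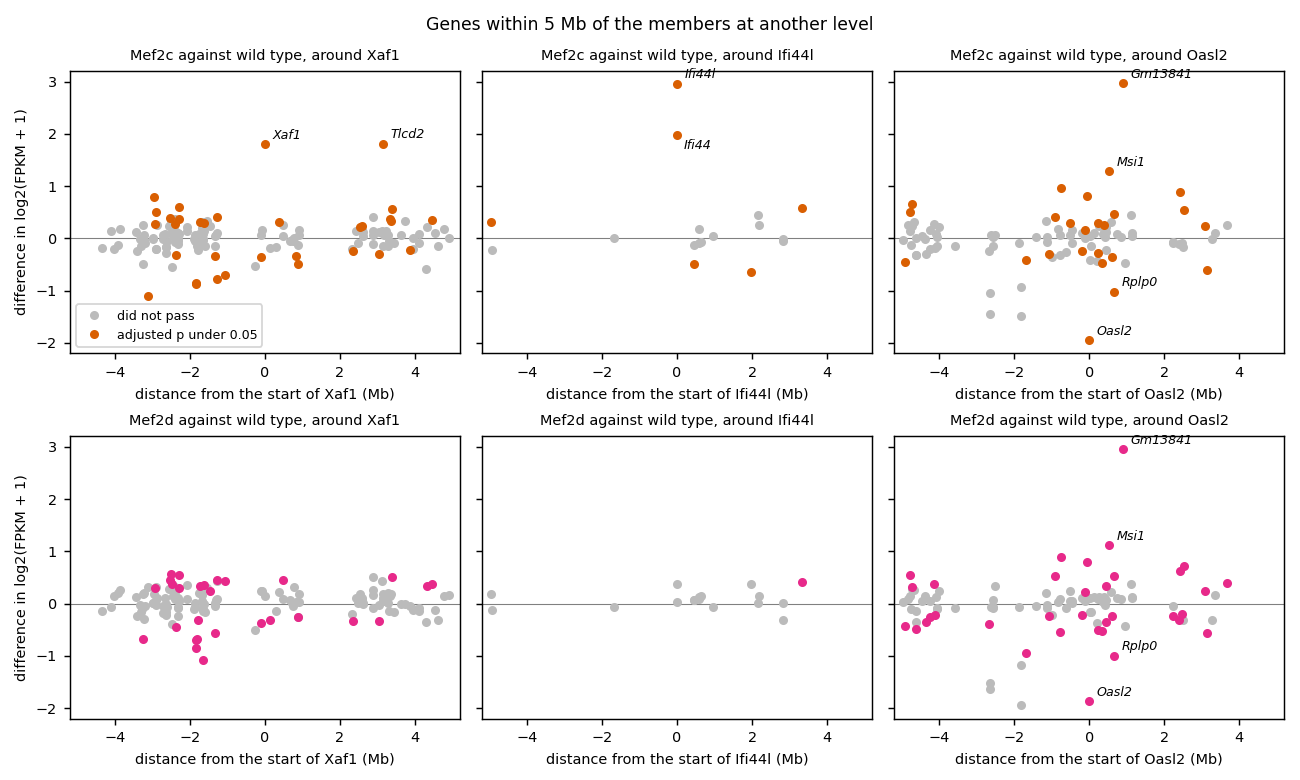
Log2 difference from wild type of all tested genes within 5 Mb of Xaf1, Ifi44l and Oasl2, against distance in Mb, with the Mef2c label and the Mef2d label. Xaf1 and Ifi44l are high with Mef2c alone, and near Oasl2 called genes of both signs appear with both labels.

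Interferon genes themselves were at or near 0 in the table. Of 19 interferon ligand genes 18 were under 1 FPKM in all 18 libraries and 14, among them Ifnb1, were listed at 0 throughout. A listed 0 need not mean no RNA here, since Trex1, a widely expressed nuclease gene, was also listed at 0 in all 18 and the Ifna genes are near-identical copies. The exception was Ifng, the type II interferon, at 5.40 to 16.1 FPKM, which was called in no comparison. Of 7 receptor and kinase genes, 1, 1, 2, 1 and 1 rose against wild type (Dyrk1, HDAC1, HDAC2, Mef2c and Mef2d) and 0 fell, beside 17.3%, 12.5%, 25.6%, 19.0% and 21.9% of all genes called. The calls were on the kinase gene Tyk2 with Dyrk1 (log2 0.20), HDAC2 (0.23) and Mef2c (0.18), and on the receptor gene Ifnar1 with HDAC1 (0.23), HDAC2 (0.22) and Mef2d (0.35). Without wild-type replicate 1 the HDAC2 call on Tyk2 (0.23) and the Mef2d call on Ifnar1 (0.33) were kept and the others lost. Against the other 4 deletions Ifnar1 (-0.21), Jak1 (-0.22) and Ifngr1 (-0.34) fell with Dyrk1, Ifngr1 rose with Mef2c (0.35) and Jak2 fell with Mef2d (-0.16).

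Among 6 further IRF genes, Irf1, a factor induced mainly by interferon gamma, rose with Dyrk1 (log2 0.45), HDAC1 (0.44), HDAC2 (0.44) and Mef2d (0.47). Irf5 rose with Dyrk1 (0.67), with 9.74 and 10.4 FPKM in replicates 2 and 3, a higher level in the B cell marker-rich replicate 1, and 7.02 to 8.52 in wild type. Without Dyrk1 replicate 1 the difference was 0.36 (adjusted p 0.13 by limma). By contrast Irf4, a factor of effector Treg, fell with Mef2c (-0.40, adjusted p 0.00224 by limma). Of 12 sensors and adaptors 10 were tested, and Mavs, the mitochondrial adaptor of RIG-I and MDA5, rose with HDAC2 (0.24), Mef2c (0.25) and Mef2d (0.25). The STING gene Tmem173 rose with Mef2c (0.20), and Traf6 fell with HDAC2 (-0.22) and Mef2c (-0.28). Of 8 genes that restrain the pathway 7 were tested, and the calls were Socs3 with HDAC2 (0.60, adjusted p 0.0251 by limma) and Socs1 with Mef2c (0.44, adjusted p 0.0493 by limma), both higher. Irf4 and Traf6 with Mef2c kept their calls in all 14 alternatives. The others in this group were lost without wild-type replicate 1, at 0.35 to 0.38 for Irf1, 0.65 for Irf5, 0.19 to 0.21 for Mavs, 0.21 for Tmem173, -0.21 for Traf6 with HDAC2, 0.52 for Socs3 and 0.35 for Socs1.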

How the data were processed

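RNA of 18 libraries was sequenced as paired reads. The submitters' processing notes name STAR, HTSeq and mm10 with no versions. The deposited table holds values taken as FPKM from the values themselves, since neither the labels nor the file headers name the unit. Reads recovered from them gave the depth. The test was limma 3.58.1 (R 4.3.3) on log2(FPKM + 1), with a mean per group, a trend of variance on level, 12 residual degrees of freedom and Benjamini-Hochberg adjustment over 12223 genes (at least 1 FPKM in at least 3 libraries, threshold 0.05). The 11 comparisons were the F test, each label against wild type, and each label against the other 4 deletions. Differences are on that log2 scale, which understates changes of low genes.

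The members and lists were chosen with earlier results of these data known. Members called by the F test or against wild type that reached 5 FPKM, plus Xaf1 and Ifi44l, are given by library. From each pathway list the called genes are named, at most 4, and around Xaf1, Ifi44 and Ifi44l the nearest tested genes. The fit was also run on simulated data with the same spread setting for all genes and no outlying library. That run does not check how the fit handles a library such as wild-type replicate 1. No label ties replicate numbers to a shared litter or day. The check for pairing was deviations from group means correlated over 0.1 in all 3 same-numbered pairs. With wild type only HDAC2 met it (0.16 to 0.33), and there blocked values are given if they change a call. Between deletion groups HDAC1 with HDAC2 (0.13 to 0.43) and Mef2c with Mef2d (0.31 to 0.40) met it too. The main comparisons between deletions use no block. Promoters are from RefSeq. Alternatives were another pseudocount, filter and scaling, a replicate block, single libraries left out, fits of 6 libraries, removal of length and GC trends, and omission of libraries rich in B cell markers. The last 2, and the omission of 4 members from the common level, were added after seeing the data. Some genes of the pathway are not reported here.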

Additional observations from a re-analysis of the deposited data

How the results depend on the processing

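Calls on Xaf1, Ifi44 and Oasl2 with the Mef2c label and on Oasl2 with Mef2d, against wild type, held in every alternative that tested them. Ifi44l was tested only where all 3 Mef2c libraries were kept. Counts of called members moved more, and the cause was not tested. With the Dyrk1 label against wild type 8 became 4 with no filter, 5 with a replicate block, 3 with length and GC trends removed and 0 in a fit of the 6 libraries. With HDAC1, 4 became 2 with RLE scaling and 1 with trends removed or with 6 libraries. With HDAC2, 8 became 4 with no filter and 5 with RLE scaling or trends removed. With Mef2d, 5 became 2 with the B cell marker-rich libraries omitted or with 6 libraries. Against the other 4 deletions, omission of those libraries gave 2 (from 6) for Dyrk1 and 1 (from 2) each for HDAC1 and HDAC2, and for Mef2d 2 became 1 with a pseudocount of 0.1 or a minimum of 5 FPKM. Leaving out 1 library gave 6 to 11 members for the F test, and against wild type 1 to 7 (Dyrk1), 0 to 6 (HDAC1), 3 to 8 (HDAC2), 5 to 8 (Mef2c) and 2 to 7 (Mef2d). HDAC1 was at 0 without wild-type replicate 1 or 3 or HDAC1 replicate 1. Against the other 4 the ranges were 4 to 7, 1 to 3, 1 to 2, 3 to 5 and 1 to 3. The common level minus wild type ran from -0.0347 to 0.26, 0.04 to 0.33, 0.03 to 0.32, 0.05 to 0.34 and -0.11 to 0.18. With length and GC trends removed Git2, beside Oasl2, was at -0.0406 (Mef2c) and -0.0551 (Mef2d), from 0.17 and 0.22, and Fubp1 at -0.20 (Mef2d), from 0.08. Same-numbered libraries of 2 groups had deviations correlated over 0.1 in 18 of 45 pairs, and 8 of 18 libraries correlated best with their own number. The block ended the calls on Stat2 (Dyrk1 and Mef2c), Oas3, Dtx3l, Eif2ak2 (HDAC1 and HDAC2) and Herc6 against wild type. Most calls against wild type were lost without wild-type replicate 1, and most also without replicate 3. With 3 libraries per group the precision of small differences is limited.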
